A study of Mus musculus with 18 samples.

Results

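Cortex from mice with a conditional knockout of Brca1 was compared with wild-type cortex on the Affymetrix B chip, an array of short oligonucleotides grouped into probe sets. The comparison used 6 of the series' 18 arrays, 3 knockout and 3 wild type, all from mouse cortex at postnatal day 7. It covered the 7838 of 22511 non-control probe sets that were listed with a signal on at least 2 arrays of each genotype. The 7838 probe sets include 6003 that carry exactly 1 gene symbol, which name 4411 genes. The table left the other cells blank, and the labels do not say why.

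Per the labels, the conditional knockout joined a Cre transgene driven by nestin, a floxed Brca1 allele whose recombination sites enclose exons 5 to 13, and a null allele, in which a neo cassette lies inverted in exon 11. The nestin promoter is active in neural progenitors, while most cells of the meninges, blood vessels and microglia arise outside the neural lineage. Whether the wild-type animals carried the Cre transgene or a floxed allele is not stated. The labels speak of 3 animals per genotype. A further 6 arrays, titled rest and labelled as brain of the same age, hold the B chip's probe sets and are used here for side-by-side values. They are of another array type, with 45037 non-control probe sets in a table of their own. What tissue the word rest covers is not given.

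Brca1 protein takes part in repair of DNA double-strand breaks by homologous recombination and in the checkpoints that stop dividing cells with damaged DNA. Neural progenitors divide fast before birth and rely on this repair. In the first postnatal week the mouse cortex has finished making most of its neurons, while oligodendrocytes, the myelin-forming glia, are still being produced from dividing precursors. The meninges are the layers of fibroblasts and vessels that cover the brain, and some of them stay attached when a cortex is dissected. The choroid plexus is an epithelium inside the ventricles that secretes cerebrospinal fluid.

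The 250 bases before the RefSeq start of 4 of the genes called below are printed here. They run 5′ to 3′ on the gene's own strand, in build GRCm38.p6. Tbx18 (chr9:87731261-87731510, minus strand), Kank2 (chr9:21798547-21798796, minus strand) and Ranbp3l (chr15:8967699-8967948, plus strand) had the largest rises among meningeal genes. Gpr6 (chr10:41072291-41072540, minus strand) fell. Capitals mark matches on either strand to the letters CCAAT (the CCAAT box) or GGGCGG (the GC box).
Tbx18: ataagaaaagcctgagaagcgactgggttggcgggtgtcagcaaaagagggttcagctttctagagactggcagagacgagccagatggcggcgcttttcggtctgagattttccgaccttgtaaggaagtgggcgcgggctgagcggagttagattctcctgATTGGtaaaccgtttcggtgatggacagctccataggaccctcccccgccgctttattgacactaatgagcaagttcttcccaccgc
Kank2: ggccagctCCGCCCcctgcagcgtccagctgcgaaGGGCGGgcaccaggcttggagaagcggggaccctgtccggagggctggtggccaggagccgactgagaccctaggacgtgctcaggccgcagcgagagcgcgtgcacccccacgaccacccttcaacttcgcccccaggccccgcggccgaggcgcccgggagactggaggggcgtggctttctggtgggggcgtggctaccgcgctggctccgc
Ranbp3l: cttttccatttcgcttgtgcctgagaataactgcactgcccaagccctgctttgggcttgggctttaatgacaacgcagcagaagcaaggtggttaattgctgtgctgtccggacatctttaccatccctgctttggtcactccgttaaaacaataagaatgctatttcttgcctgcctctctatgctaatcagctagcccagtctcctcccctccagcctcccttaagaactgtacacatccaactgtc
Gpr6: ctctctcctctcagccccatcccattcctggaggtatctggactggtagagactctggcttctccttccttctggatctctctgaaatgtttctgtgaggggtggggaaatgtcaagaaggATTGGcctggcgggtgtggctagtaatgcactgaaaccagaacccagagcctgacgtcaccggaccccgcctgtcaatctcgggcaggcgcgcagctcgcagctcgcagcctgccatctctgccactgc
A promoter entry was found for 16 of the 28 genes called below. Both strands of the 250 bases were also searched for the TATA box (letters TATAAA), a forkhead core (letters TGTTTAC) and a Sox core (letters ACAAAG). Among 32851 RefSeq promoters, 12.4% held the TATA box, 33.8% the CCAAT box, 32.7% the GC box, 3.17% the forkhead core and 16.5% the Sox core. Of the 14 promoters of genes that rose, 2 held the TATA box, 4 the CCAAT box and 3 the GC box, and none held the forkhead or Sox core. Of the 2 promoters of genes that fell, both held the CCAAT box and 1 the GC box. A match of such short letters is a description of the sequence only.

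The arrays were of similar brightness, with median signals between 378.3 and 396.5 over the probe sets listed on all 6. The share of probe sets listed was 34.5% to 39.4% in wild type and 33.6% to 42.6% in knockout (exact two-sided permutation p = 0.6, where 0.1 is the smallest that 3 against 3 arrays allow). The actin 3' to 5' ratio, which rises as RNA degrades, was 1.86 to 2.16 in wild type and 1.94 to 2.40 in knockout (exact two-sided permutation p = 0.6). Knockout replicate 3 stood apart: it had the lowest share listed, the highest actin ratio and the lowest array weight (0.441). The Y-linked genes Eif2s3y (76.0 and 88.7) and Uty (38.4 and 43.6) were listed on the arrays of knockout replicates 1 and 2 and blank on the other 4, so genotype is partly joined with sex. Brca1 has no probe set on the B chip, so the knockout could not be checked there. On the A chip, hybridised with cortex of the same study, 1 Brca1 probe set was listed, at 38.1, 37.1 and 48.8 in wild type and 51.4, 43.9 and 61.2 in knockout (log2 change 0.33, limma adjusted p = 0.499). It was thus no lower in knockout, and in the rest samples it read 101.1, 111.6 and 114.0 against 118.9, 86.6 and 134.9. Which exons it reads is not given, so it may lie outside the deleted part. As to the tissue, 5 of the 6 forebrain marker genes on the chip, among them Emx1, Emx2, Cux2 and Neurod2, were listed on all 6 arrays, while 11 of 15 genes of midbrain, hindbrain and cerebellum were blank on all 6. The 2 tested genes of the latter list, Zic1 (187.8, 258.2 and 527.7 against 497.0, 572.9 and 438.3) and Zic5 (48.6, 80.6 and 163.1 against 159.5, 156.6 and 115.8), overlapped between the genotypes, with log2 changes of 0.76 and 0.73 (limma adjusted p = 0.556 and 0.722).

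Knockout cortex differed from wild type in few of the probe sets, and mostly by higher signals. The test was limma, a linear model fitted to each probe set with variances pooled across probe sets. Of 7838 probe sets tested, 31 (0.396%) passed an adjusted p of 0.05 in limma. Of these, 27 (0.344%) were higher in knockout and 4 (0.051%) lower. At an unadjusted limma p under 0.05 there were 554 (7.07%), 308 higher (3.93%) and 246 lower (3.14%). The calls name 28 genes, 24 that rose and 4 that fell, by 1.69-fold to 5.02-fold. The genotypes did not overlap in any of the 31, against 15.4% of all probe sets tested (7.96% higher and 7.41% lower in knockout). Probe sets picked for a low p on these arrays nearly always have such a gap, so it is no further evidence. The median log2 change over all probe sets was -0.01, and the 5th and 95th percentiles were -0.42 and 0.44. All 31 carry a gene symbol, while none of the 1835 probe sets with no symbol or several passed. Leaving out wild-type replicate 1 gave 13 calls, either of the other wild-type arrays 15 and knockout replicate 2 gave 14, and the count was 1 when each blank was set to the 5th percentile of its array. When the pattern of Y-linked signals entered the fit (a sex-marker term), which compares knockout replicate 3 alone with the wild type, 12 probe sets passed, 4 higher and 8 lower, against 27 and 4 without the term. They held 4 of the 31 calls (Tbx18, Kank2, Bcas1 and 1 probe set of Tmem64), and all 30 of the 31 that had a value kept their direction.

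**Figure D1:**
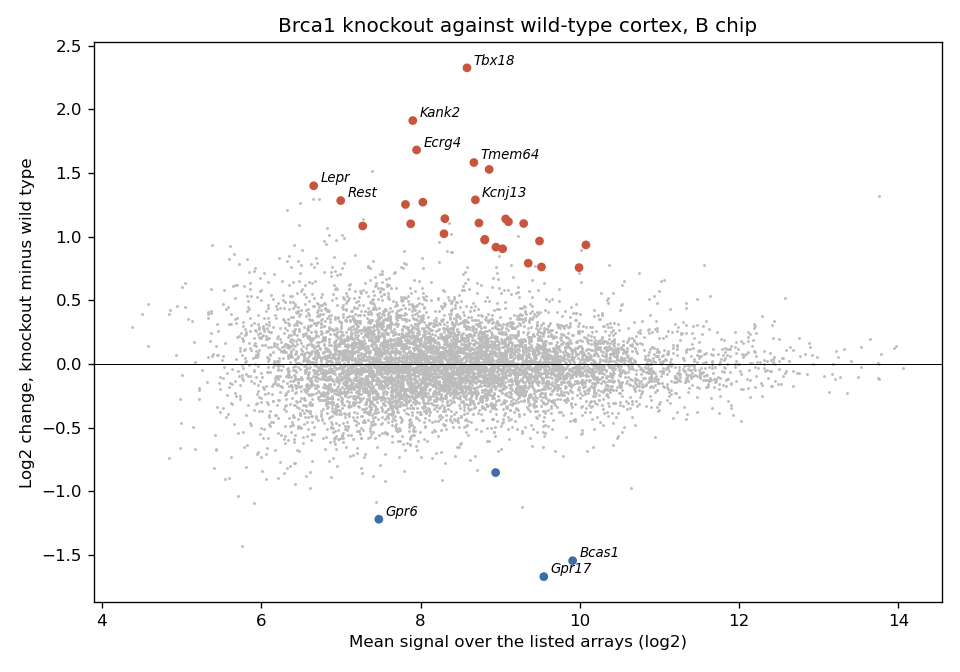
Log2 change (knockout minus wild type, vertical axis) against the mean log2 signal over the listed arrays (horizontal axis) for the 7838 probe sets tested on the B chip. Red points mark the 27 probe sets called higher and blue points the 4 called lower in knockout (limma adjusted p under 0.05), and Tbx18, at 2.33, lies above all others.

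Genes of meningeal fibroblasts rose. Of 13 list members tested, 7 passed, all upward: Tbx18, Kank2, Ranbp3l, Sulf1, Slc13a4, Rdh10 and Bmp5. In all 12 of the 13 were higher, 10 with an unadjusted limma p under 0.05, and the median log2 change was 1.10, against 0.00 over the 4411 genes at 1 probe set each (the brightest), of which 4.90% were higher at that unadjusted p. The list was drawn up with results of these data known, so its count is not independent evidence of a direction. Of the 89 genes of the list, 29 are on the chip, and 9 of those were blank on all 6 arrays, among them Cxcl12, Fbln1 and Pdgfra. Summed over the 11 members listed on every array, the signal was 2356.7 to 2891.6 in wild type and 5133.8 to 6028.9 in knockout. In tissue of mixed cells, more cells of a type and more RNA per cell cannot be told apart. The list held 2 calls with the sex-marker term, 1 with blanks set to the 5th percentile, and 4 when wild-type replicate 1 or 2, or knockout replicate 2, was left out, and its median stayed between 1.03 and 1.17 when any array was left out.

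Tbx18, a T-box transcription factor of meningeal fibroblasts and of the mural cells of vessels, read 166.1, 163.7 and 184.6 in the wild-type arrays and 936.2, 828.9 and 816.2 in the knockout arrays. Every knockout array lay far above every wild-type array, and the replicates of a genotype were close together. The log2 change was 2.33 (SE 0.165, 95% interval 1.97 to 2.68, limma adjusted p = 5.64e-06). It was the only call that held in all 21 alternative settings.

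Kank2, which encodes an adaptor between the cytoskeleton and cell adhesions, read 170.1, 101.3 and 108.8 in wild type and 469.4, 461.7 and 461.3 in knockout. The knockout arrays were nearly equal, and wild-type replicate 1 was the highest of its group. Its log2 change was 1.91 (SE 0.217, limma adjusted p = 0.00127). Ranbp3l, whose product exports Smad proteins from the nucleus, read 206.2, 353.6 and 281.3 against 915.1, 755.3 and 712.8. The wild-type arrays were spread more widely than the knockout arrays in relative terms, yet the lowest knockout value was far above the highest wild-type value. The log2 change was 1.53 (SE 0.202, limma adjusted p = 0.00401).

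Sulf1, an enzyme that trims sulfate from heparan sulfate chains outside the cell, read 288.1, 300.2 and 281.5 in wild type and 593.8, 666.0 and 616.3 in knockout. Both groups were tight and far apart (log2 change 1.11, SE 0.158, limma adjusted p = 0.00582). A further Sulf1 probe set was blank on all 3 wild-type arrays and read 198.7, 264.8 and 381.5 in knockout. Rdh10, which makes retinaldehyde on the way to retinoic acid, a signal from the meninges to the cortex, read 152.4, 134.2 and 201.6 against 314.2, 355.9 and 364.3. Bmp5, a secreted growth factor of the BMP family, read 97.8, 105.3 and 116.6 against 216.0, 247.4 and 214.2. For both genes every knockout array was above every wild-type array. Slc13a4, a sulfate transporter, read 486.3, 348.0 and 464.5 against 1218.6, 924.9 and 692.5, with knockout replicate 3 nearest to wild type. The log2 changes were 1.10 for Rdh10 (SE 0.204), 1.08 for Bmp5 (SE 0.210) and 1.10 for Slc13a4 (SE 0.207), with limma adjusted p of 0.0345, 0.0428 and 0.0360. Each of these 3 calls was lost in some fits with an array left out: Bmp5 lost its call whichever array was left out (limma adjusted p 0.0728 to 0.234), Rdh10 without wild-type replicate 1 or 2, or either of knockout replicates 2 and 3 (0.0868 to 0.138), and Slc13a4 without any array but knockout replicate 3 (0.0751 to 0.129). Tbx18, Kank2, Ranbp3l and Sulf1 were called without each array in turn. With the sex-marker term Ranbp3l and Sulf1 lost their calls (limma adjusted p = 0.0720 for both).

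**Figure D2:**
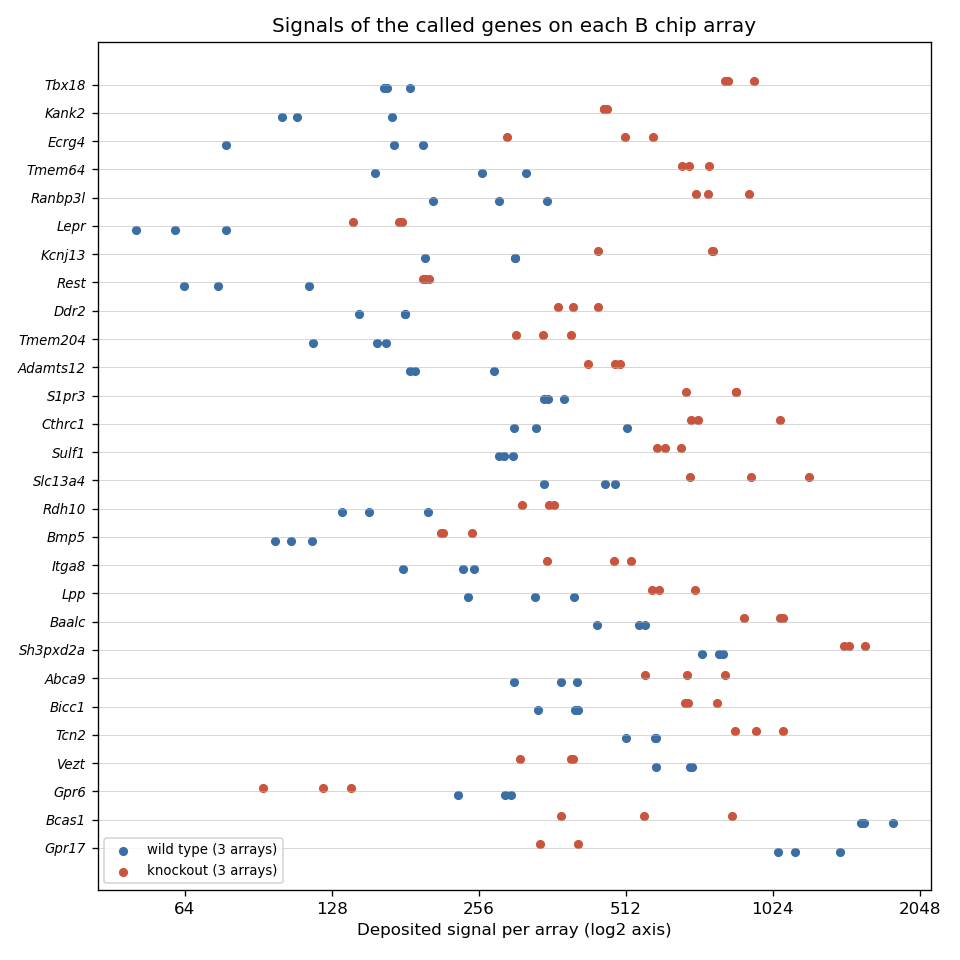
Deposited signal on each of the 6 B chip arrays (horizontal axis, log2 scale) for the 28 called genes, 1 probe set a gene, with wild-type arrays in blue and knockout arrays in red. The colours do not overlap for any gene; Gpr17 has 2 knockout points because the third array is blank.

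Choroid plexus genes were also higher. Of 10 tested members of the choroid plexus and ependyma list, 3 rose (Kcnj13, Slc13a4 and Sulf1), 6 were higher with an unadjusted limma p under 0.05, and the median log2 change was 1.10. Sulf1 and Slc13a4 are members of the meningeal list too. Kcnj13, a potassium channel of the choroid plexus epithelium, read 304.3, 198.6 and 304.1 in wild type and 449.7, 770.7 and 774.7 in knockout, with knockout replicate 1 nearest to wild type. Its log2 change was 1.29 (SE 0.234, limma adjusted p = 0.0342), and the call was lost without any array but knockout replicate 1 (0.0744 to 0.107). Clic6, a chloride channel family member of that epithelium, read 185.0 and 230.1 on the 2 wild-type arrays that listed it and 297.8, 610.9 and 480.5 in knockout (log2 change 1.11, SE 0.272, limma adjusted p = 0.157). Another Clic6 probe set was listed on the knockout arrays alone, at 311.5, 497.8 and 453.9. The summed signal of the 7 members listed on every array was 9733.6 to 20304.4 in wild type and 24391.6 to 32982.8 in knockout. On average most of that sum came from Ttr, at a mean of 10142 (SD 5492) in wild type and 22220 (SD 3927) in knockout. Ttr did not pass (log2 change 1.32, SE 0.352, limma adjusted p = 0.210), so the sum describes mainly 1 gene. Of 21 members on the chip, 6 were blank throughout, among them Tmem72 and Car12. The list's calls ranged from 1 to 3 when an array was left out, and with the sex-marker term no member was called (0 of 9) and the median was 0.69.

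Genes of matrix remodelling and adhesion contributed 3 further rises. Of 23 tested members of that list, 4 rose (Adamts12, Cthrc1, Sulf1 and Itga8), none fell, and the median log2 change was 0.16. Adamts12, a secreted metalloprotease, read 189.5, 185.0 and 275.2 against 498.0, 427.7 and 486.9 (log2 change 1.14, SE 0.196, limma adjusted p = 0.0229). Cthrc1, a secreted protein with a collagen repeat, read 335.3, 301.6 and 514.4 against 1058.5, 719.5 and 698.3 (log2 change 1.12, SE 0.218, limma adjusted p = 0.0452). Itga8, an integrin subunit, read 179.3, 250.7 and 237.3 against 484.0, 524.3 and 353.1 (log2 change 1.02, SE 0.206, limma adjusted p = 0.0496). The genotypes did not overlap for any of these, although wild-type replicate 3 was clearly the highest of its group for Adamts12 and Cthrc1. Adamts12 lost its call without wild-type replicate 1 or 2 or knockout replicate 3 (limma adjusted p 0.0635 to 0.104), Cthrc1 without either of those wild-type arrays or knockout replicate 1 or 3 (0.0640 to 0.174), and Itga8 without any array but knockout replicate 3 (0.0839 to 0.231). The list's calls ranged from 1 to 3 when an array was left out.

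Ddr2, S1pr3 and Lepr, which encode receptors, also rose. Ddr2, a receptor tyrosine kinase that binds fibrillar collagen, read 145.2, 181.1 and 180.5 against 399.7, 449.5 and 371.8 (log2 change 1.27, SE 0.188, limma adjusted p = 0.00649). S1pr3, a receptor for sphingosine 1-phosphate and a member of the reactive astrocyte list, read 347.7, 383.1 and 355.0 against 861.5, 862.9 and 681.0 (log2 change 1.14, SE 0.162, limma adjusted p = 0.00582). It was the only call among 5 tested members of that list, of which 4 were higher and 1 lower, with a median of 0.14. Gfap, another member, was at 0.14 (limma adjusted p = 0.958). Of 17 members on the chip, 10 were blank throughout, among them Osmr, Cp and Stat3. Lepr, the leptin receptor, was dim, at 61.0, 77.7 and 50.7 against 175.3, 178.2 and 141.4 (log2 change 1.40, SE 0.258, limma adjusted p = 0.0344). Knockout replicate 3 was the lowest of its group in all 3 receptor genes, and each stayed above all wild-type arrays. Ddr2 and S1pr3 were called without each array in turn but not with the sex-marker term (limma adjusted p = 0.0941 for both), while Lepr lost its call without wild-type replicate 1 or 3 or knockout replicate 1 or 2 (0.0898 to 0.155).

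Of the remaining rises among the 14 largest, Tmem64 was read by 3 probe sets, all called. The probe set of largest change read 319.4, 260.1 and 156.7 against 689.7, 667.8 and 759.7. Tmem64 encodes a membrane protein, and its log2 changes were 1.58 (SE 0.226), 0.98 (SE 0.179) and 0.79 (SE 0.160), with limma adjusted p of 0.00582, 0.0342 and 0.0496. The first was called without each array in turn, and the others each lost their call without 5 of the 6 arrays (0.0501 to 0.226). Tmem204, a membrane protein of endothelial cells, read 117.2, 158.5 and 165.4 against 304.6, 395.3 and 345.9 (log2 change 1.25, SE 0.207, limma adjusted p = 0.0169). Another probe set of the gene read 165.9, 169.6 and 169.8 against 283.3, 287.7 and 281.7, the same direction in very tight groups, but did not pass (limma adjusted p = 0.133). Without wild-type replicate 1 or knockout replicate 2 the first Tmem204 probe set did not pass either (0.0744 to 0.0916). A further Tmem204 probe set was blank on all 3 wild-type arrays and read 64.9, 74.4 and 109.5 in knockout.

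Rest, a repressor of neuronal genes in cells that are not neurons, read 74.9, 63.7 and 115.0 against 202.5, 196.7 and 199.0. The knockout arrays were nearly equal and lay above all wild-type arrays. The log2 change was 1.28 (SE 0.254, limma adjusted p = 0.0488), lost without any array but wild-type replicate 3 (0.0929 to 0.165). Ecrg4, a secreted peptide precursor of the choroid plexus, read 197.0, 77.8 and 171.8 against 292.5, 583.5 and 509.3 on its called probe set (log2 change 1.68, SE 0.324, limma adjusted p = 0.0428). Another Ecrg4 probe set went the other way without passing, at 145.4, 111.7 and 147.5 against 86.3, 114.3 and 100.7 (limma adjusted p = 0.786), so the 2 probe sets disagree. The call was lost without any array but knockout replicate 1 (0.0563 to 0.159).

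The other called rises, named here after their values were seen, were those of Lpp (0.97), Baalc (0.97), Sh3pxd2a (0.94), Abca9 (0.92), Bicc1 (0.91) and Tcn2 (0.76 on both of 2 probe sets), as log2 changes. Sh3pxd2a, a scaffold of matrix-degrading cell protrusions, read 735.1, 796.4 and 811.7 against 1430.7, 1471.0 and 1580.9, and was the only 1 of these genes called without each array in turn. Their SE ran from 0.140 (Sh3pxd2a) to 0.196 (Lpp) and their limma adjusted p from 0.00668 (Sh3pxd2a) to 0.0497 (Tcn2). Lpp and Tcn2 lost their calls whichever array was left out, Abca9 without any array but knockout replicate 3, Bicc1 without any wild-type array or knockout replicate 2, and Baalc without wild-type replicate 2 or 3 (limma adjusted p up to 0.281 over these fits). Another 2 Lpp probe sets had the same sign without passing, at 0.65 and 0.60 (limma adjusted p = 0.722 and 0.249).

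Oligodendrocyte genes held 2 of the 4 falls. Gpr17, a receptor that marks precursors on the point of becoming myelin-forming cells, read 1404.7, 1135.9 and 1052.1 in wild type and 341.0 and 409.5 in knockout, with knockout replicate 3 blank. Bcas1, a marker of early myelinating oligodendrocytes, read 1556.2, 1576.9 and 1804.2 against 559.3, 847.0 and 376.9. The genotypes were far apart in both genes, with Bcas1 more spread among the knockout arrays than among the wild-type arrays. The log2 change of Gpr17 was -1.67 (SE 0.187, limma adjusted p = 0.00127), estimated from 5 arrays. That of Bcas1 was -1.54 (SE 0.227, limma adjusted p = 0.00649), and it lost its call without wild-type replicate 3 (0.0598), after quantile normalization, without a variance trend and with blanks at the 5th percentile (up to 0.206). With the sex-marker term Bcas1 passed at -2.12 (limma adjusted p = 0.00260), while Gpr17 has no value there.

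The other genes of the lineage moved less. Of 15 tested members of the oligodendrocyte precursor list, Gpr17 alone passed, 5 were lower and 1 higher with an unadjusted limma p under 0.05, and the median log2 change was -0.33, against 0.00 over all genes and 3.13% lower at that p. Without knockout replicate 3 the list's median was -0.16. Lhfpl3 read 919.3, 921.4 and 881.4 against 664.5, 690.0 and 736.7, a clear gap between tight groups (log2 change -0.38, SE 0.143, limma adjusted p = 0.556). Cacng4, a subunit that regulates glutamate receptors (-0.42, adjusted p = 0.590), and Sox8, a transcription factor of the lineage (-0.55, adjusted p = 0.624), did not pass in limma either, though neither gene's genotypes overlapped. The summed signal of the 13 members listed on every array overlapped between the genotypes, at 15077.0 to 16660.8 in wild type and 14158.9 to 15894.1 in knockout. Of 26 tested members of the committed oligodendrocyte and myelin list, Gpr17 and Bcas1 fell, none rose, 13 were higher and 13 lower, and the median was 0.01. Plxnb3, a semaphorin receptor of oligodendrocytes, read 242.1, 202.2 and 262.4 against 99.7 and 121.9 on the 2 knockout arrays that listed it (log2 change -1.09, SE 0.242, limma adjusted p = 0.0972). Tmem125, a membrane protein gene of the list, lay the other way, at 73.4, 100.6 and 125.2 against 215.0, 171.2 and 107.8 (0.70, SE 0.291, limma adjusted p = 0.627), with knockout replicate 3 inside the wild-type range. Opalin, Enpp6 and Gjc3 were among 8 genes of this list blank on all 6 arrays.

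The other falls were those of Gpr6 and Vezt. Gpr6, an orphan receptor of striatal projection neurons, read 297.3, 232.4 and 290.1 against 139.8, 92.5 and 123.0 (log2 change -1.22, SE 0.223, limma adjusted p = 0.0342). It was the only 1 of 24 tested striatal genes to pass, and the list's median was -0.11. Vezt, a component of adherens junctions, read 694.9, 701.6 and 592.0 against 400.0, 395.3 and 310.5 (log2 change -0.85, SE 0.169, limma adjusted p = 0.0488). Both genes had well separated groups on these probe sets. Another 2 Vezt probe sets lay the same way without passing, at -0.61 and -0.22 (limma adjusted p = 0.459 and 0.941). The genotypes overlapped in the latter. Vezt lost its call whichever array was left out (0.0579 to 0.176) and Gpr6 without any array but knockout replicate 1 (0.0545 to 0.144).

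Neuronal lists held few calls. Upper-layer cortical neuron genes had no call in 20 tested, but 5 were lower and none higher with an unadjusted limma p under 0.05, with a median log2 change of -0.17. Pou3f2, a transcription factor of upper-layer neurons, read 268.5, 282.0 and 228.6 against 145.7, 142.6 and 123.4 (log2 change -0.92, SE 0.201, limma adjusted p = 0.0806). Its relative Pou3f3 read 2111.0, 1476.5 and 1600.0 against 1163.7, 949.1 and 1204.0 (-0.64, SE 0.167, limma adjusted p = 0.189). In both the genotypes were separate, and Cux2 (-0.57) and Epha4 (-0.54) lay the same way without passing (limma adjusted p = 0.371 and 0.360). Among 24 deep-layer and subplate genes 1 rose, Sulf1, and the median was 0.08. Cobll1 read 49.8, 73.8 and 71.5 against 179.2, 194.8 and 112.2, higher on every knockout array, and did not pass (1.30, SE 0.284, limma adjusted p = 0.0806).

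Interneuron genes had no call in 23 tested, with 5 lower and 2 higher at an unadjusted limma p under 0.05 and a median of -0.13. Cnr1, the cannabinoid receptor of a class of interneurons, read 1088.4, 1135.2 and 1192.1 against 658.5, 621.2 and 805.6 (log2 change -0.72, SE 0.152, limma adjusted p = 0.0663). Adarb2, a marker of interneurons from the caudal ganglionic eminence, read 403.4, 427.7 and 439.3 against 255.2, 265.4 and 168.8 (-0.91, SE 0.201, limma adjusted p = 0.0838). The genotypes stood well apart in both genes, yet neither passed over 7838 tests. The members higher at that p were Ndnf and Nr2f2, the latter named after its values were seen. Ndnf, a secreted protein of layer 1 interneurons, read 359.4, 280.3 and 277.4 against 446.5, 536.4 and 436.9 (0.63, SE 0.179, limma adjusted p = 0.275). Nr2f2, a nuclear receptor, was at 0.80 on the log2 scale (limma adjusted p = 0.288), and neither gene's genotypes overlapped. Pan-excitatory genes (21 tested, median -0.07), migrating and differentiating neurons (48, median -0.06) and synapse and ion channel genes (90, median -0.09) had no call in either direction. At an unadjusted limma p under 0.05 they had 1, 1 and 4 members higher and 2, 6 and 3 lower.

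Endothelial genes had no call among 13, although 11 were higher, 6 of them with an unadjusted limma p under 0.05, and the median log2 change was 0.39. Over the 4411 genes 49.9% were higher, and 4.90% were higher at that p. Apcdd1, an inhibitor of Wnt signalling in vessels, read 1233.2, 1258.7 and 1524.1 against 1679.8, 2445.4 and 2548.8 (0.72, SE 0.173, limma adjusted p = 0.133). Summed over 11 members, the endothelial signal was 7259.6 to 7435.2 in wild type and 9018.9 to 9717.3 in knockout, without overlap. Microglial genes had 1 call in 5, Abca9 (median 0.30), and 10 of 19 on the chip, among them Ptprc, Cd53 and Laptm5, were blank throughout. Astrocyte genes had no call in 22 (4 higher at an unadjusted limma p under 0.05, none lower, median 0.13). Genes of interferon response had none in 5 (1 higher at that p, median 0.27) and pericyte genes none in 3. Whether meningeal, vascular and choroid tissue made up the same share of each dissected cortex was not tested.

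**Figure D3:**
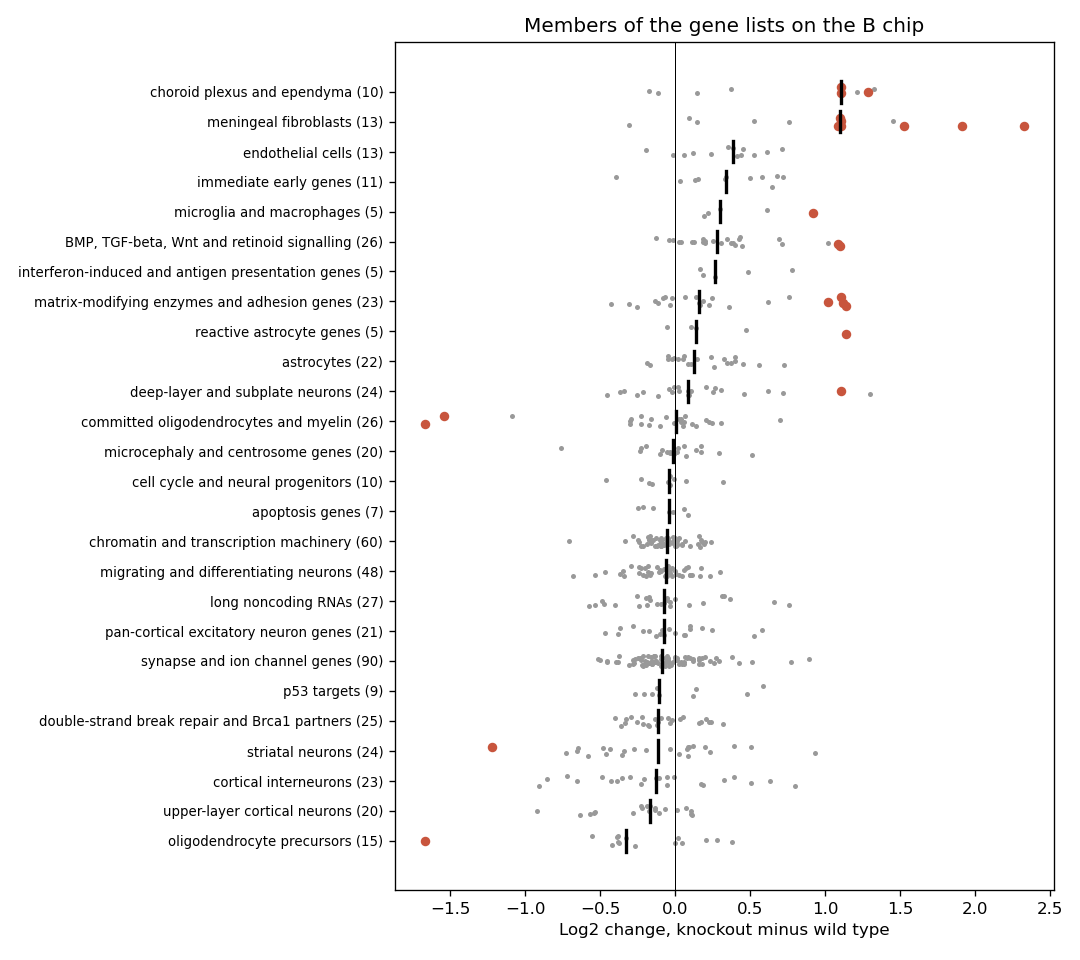
Log2 change (knockout minus wild type, horizontal axis) of each tested member of the gene lists with at least 5 tested members, 1 probe set a gene, with the number tested in brackets. Black bars are list medians, and coloured points are called members; the choroid plexus and meningeal medians lie at 1.10 and that of oligodendrocyte precursors at -0.33 (-0.16 without knockout replicate 3).

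Signalling genes of the BMP, TGF-beta, Wnt and retinoid pathways lay mostly above 0. Of 26 tested, 2 rose (Rdh10 and Bmp5), and both are members of the meningeal list too. In all 23 were higher and 3 lower, where 49.9% of the 4411 genes were higher. The median log2 change was 0.28, between 0.21 and 0.29 when an array was left out. No further member passed, and without any 1 array the count of calls was 0 to 2. Immediate early genes, which neurons switch on with activity, had no call in 11. Of them 5 were higher with an unadjusted limma p under 0.05, and the median was 0.34. Nrn1, a secreted protein of active neurons, read 1714.8, 1764.4 and 1551.7 against 2452.0, 2439.3 and 2607.4 (0.58, SE 0.135, limma adjusted p = 0.111). The knockout arrays were all above the wild-type arrays.

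The gene groups closest to Brca1's own work showed no call. Double-strand break repair genes and Brca1 partners had 25 tested members of 56 on the chip, with a median log2 change of -0.11, and 24 were blank throughout, among them Chek1, Polq and Topbp1. Of the 25, Brcc3, a deubiquitinase of a complex with Brca1, was lower at an unadjusted limma p of 0.0428 and did not pass after adjustment (0.689), at 589.1, 586.6 and 651.5 against 405.3, 595.0 and 407.6. Knockout replicate 2 lay within the wild-type range. The p53 targets (9 tested, 1 higher at an unadjusted limma p under 0.05), apoptosis genes (7), cell cycle and progenitor genes (10) and microcephaly and centrosome genes (20) had medians of -0.11, -0.04, -0.04 and -0.01. That of the p53 targets turned to 0.10 without knockout replicate 3, 0.03 without wild-type replicate 3 and 0.04 with the sex-marker term. The last 3 lists had no member at an unadjusted limma p under 0.05. Chromatin genes had none called in 60 (median -0.06). Cell cycle genes were largely out of reach, since 23 of 47 on the chip were blank on all arrays. Probe sets blank on all 3 wild-type arrays were not tested. Among them, the 3 knockout arrays listed Top2a (148.9, 192.8 and 161.6) and Arhgap11a (185.9, 207.4 and 222.2) of the cell cycle list. The p53 target Eda2r (85.6, 76.1 and 98.8) had the same pattern, as had 55 probe sets in all. These genes were named after their values were seen. Top2a had a log2 change of 0.29 on the A chip (limma adjusted p = 0.419).

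Long noncoding RNAs had no call in 27, with a median of -0.07. Malat1, a nuclear RNA, read 369.9, 398.3 and 365.3 against 800.0, 596.2 and 550.2 (0.76, SE 0.175, limma adjusted p = 0.104). Pantr1, transcribed next to Pou3f3, read 2647.6, 2548.6 and 2072.9 against 1514.6, 1584.2 and 1761.8 (-0.58, SE 0.147, limma adjusted p = 0.180). Neither gene's genotypes overlapped. Pantr1 and Pou3f3 are neighbouring genes, and their values lay in the same direction.

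Probe sets listed in only 1 genotype have no fold change. Since the cause of the blanks is not stated, a blank was not read as an absent transcript. On the chip 55 probe sets were listed on all 3 knockout arrays and blank on all 3 wild-type arrays, 46 of them with 1 gene, and 14 showed the opposite pattern, 8 with 1 gene. The brightest in knockout was Eva1b, a membrane protein gene, at 560.9, 482.3 and 409.0. Itih5, which binds hyaluronan, read 547.8, 381.1 and 279.4, and its A chip probe set was higher by 2.48 on the log2 scale (limma adjusted p = 3.35e-06). Clic6, Sptbn1 (436.8, 376.5 and 435.0), Baalc (478.8, 304.8 and 331.1) and Sned1 (352.7, 347.4 and 294.4) completed the 6 brightest. These did not all move elsewhere: Sptbn1, a spectrin, had a log2 change of -0.02 on its other B chip probe set and -0.07 on the A chip, while the other Baalc probe set was called at 0.97. Listed in wild type alone were Cdrt4os1 (131.8, 199.3 and 219.8), Wdr37 (137.8, 152.5 and 242.6), Tmem88b (130.5, 126.3 and 132.4), Ccbe1, Ccdc173 and Spx. Wdr37 read higher in knockout on its other B chip probe set (0.40, limma adjusted p = 0.683), against the direction of the blanks.

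**Figure D4:**
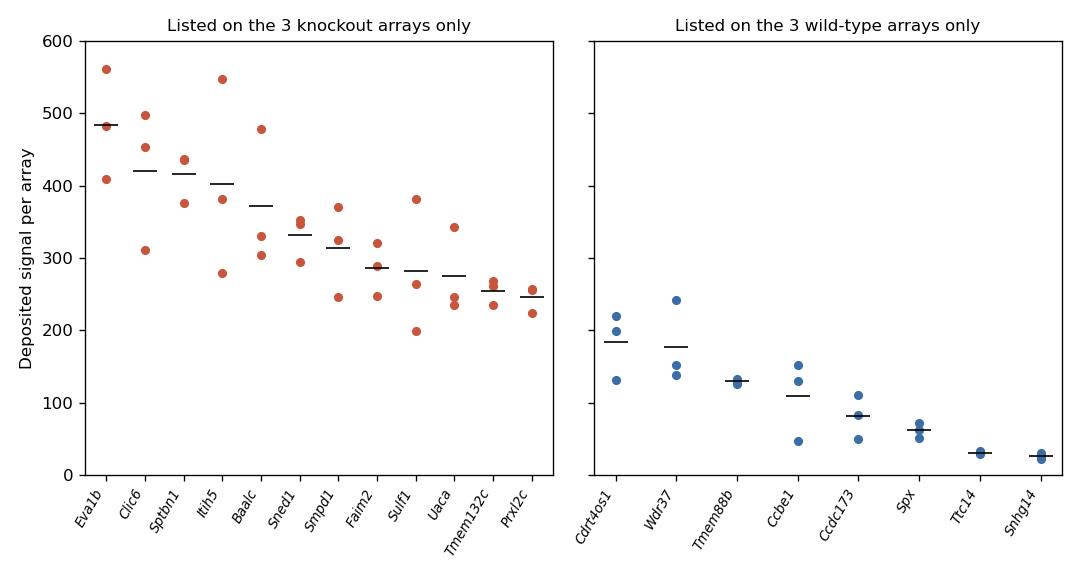
Deposited signal per array (vertical axis, linear) of the brightest probe sets with 1 gene that were listed on all 3 arrays of 1 genotype and blank on all 3 of the other. Bars are means. Eva1b reaches 560.9 in knockout, while the signals listed in wild type alone stay at or below 242.6.

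Called genes could be read again elsewhere, with genotype and sex joined in the same way. The Y-linked Eif2s3y was listed for knockout replicates 1 and 2 alone on the A chip (154.9 and 191.7) and in rest (257.2 and 237.9). A shared sign there thus cannot separate genotype from sex. A tested A chip probe set, hybridised with cortex of the same study, was found for 5 of the 28 genes. All 5 had the same sign there, and 3 passed in limma: Bicc1 (1.21, adjusted p = 0.000704), Lpp (0.81, adjusted p = 0.0125) and Baalc (0.78, adjusted p = 0.0165), where 2.98% of A chip probe sets were called. Ecrg4 (1.58, adjusted p = 0.0622) and Rdh10 (0.63, adjusted p = 0.0651) did not pass there. Whether A and B chip samples with the same number came from the same extract is not stated. Of 9 other B chip probe sets of called genes, 8 had the same sign and 3 were called. Those 3, of Tmem64 and Tcn2, are among the 31 calls themselves, so they are no second reading. None of the others passed.

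In the rest table the same probe set was tested for 27 of the 28 genes, all except Gpr6, and the sign was the same in all 27. A shared sign was common in a wider set too. Of all probe sets whose genotypes were separate in both tables, called ones included, 75 were higher in both and 82 lower in both. Another 34 were higher in cortex and lower in rest, and 16 the reverse. The share of equal signs over all probe sets was not computed. Tbx18 (2.39, SE 0.238, limma adjusted p = 0.00685) and Gpr17 (-2.10, SE 0.320, limma adjusted p = 0.0335) passed there too, in a table where 0.313% of probe sets were called. Bcas1 read -1.97 (limma adjusted p = 0.0805) and Adamts12 1.12 (limma adjusted p = 0.0883), close to their cortex values of -1.54 and 1.14. For many other genes the rest value was smaller, though it was read on another array type. Kank2 changed by 0.36 in rest against 1.91 in cortex, Sulf1 by 0.09 against 1.11 and Tmem64 by 0.37 against 1.58.

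Whether the change differed between the tables was asked with an interaction term over 6563 probe sets, both tables being fitted together in limma. Tissue and array type are fully joined in these tables, so a difference between them cannot be assigned to either. None (0%) passed after adjustment, and 504 (7.68%) had an unadjusted p under 0.05, among them probe sets of 18 of the called genes, which were selected for a large change in the cortex arrays. Kank2 had the lowest p, with a rest change lower by 1.56 on the log2 scale (SE 0.295, limma adjusted p = 0.349), and it passed when wild-type replicate 1 of the B chip was left out. For Sulf1 the difference was -1.02 (SE 0.202, limma adjusted p = 0.349). For Tbx18 it was 0.06 (SE 0.287, limma adjusted p = 0.985), an interval wide enough to hold a moderate difference either way.

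**Figure D5:**
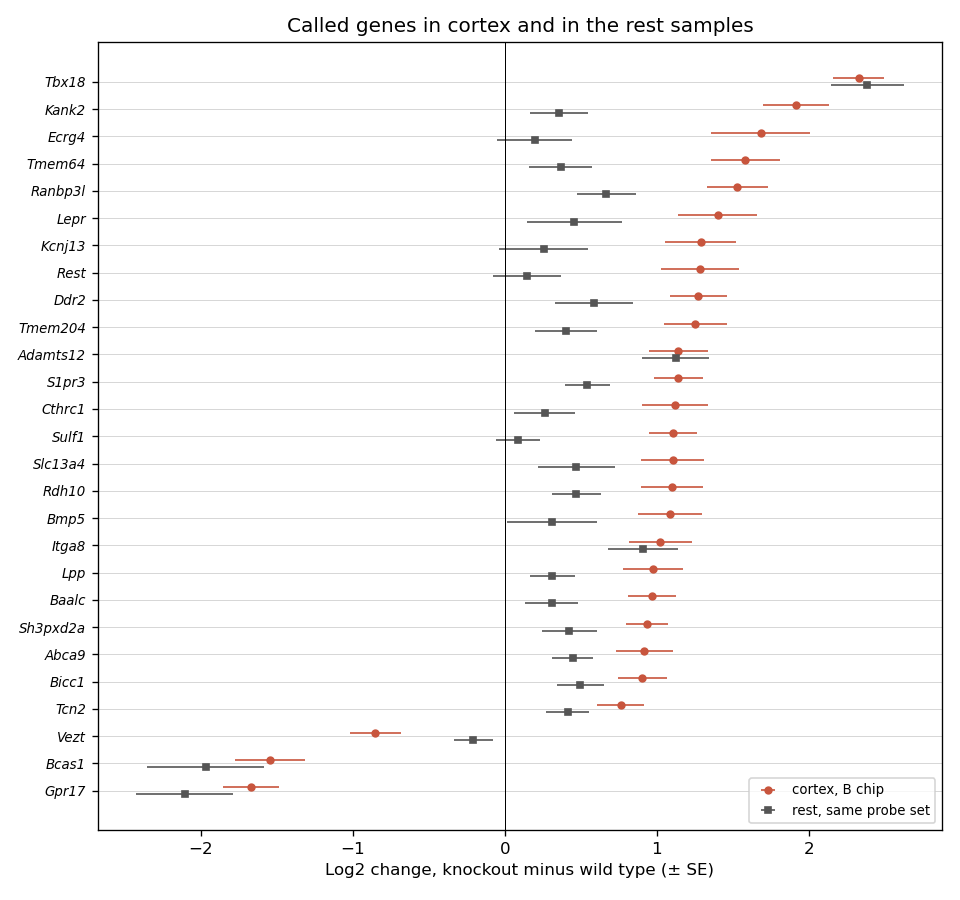
Log2 change (knockout minus wild type, horizontal axis) of the 27 called genes with a value in both tables, in cortex on the B chip (red) and in the rest samples for the same probe set (grey). Lines show the SE; all 27 pairs lie on the same side of 0, and Tbx18, Adamts12 and Itga8 lie close together while Kank2 and Sulf1 lie apart.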

How the data were processed

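Total RNA from 3 wild-type and 3 knockout cortices was hybridised to the B chip. The deposited signal of a probe set is a linear intensity that the authors obtained with MAS5, per the submitters' processing notes. No version or setting is given there, and blanks were kept as missing. Signals were used unscaled and without an offset as log2 values. Probe sets listed on at least 2 arrays of each genotype (7838) were tested with limma 3.58.1 in R 4.3.3 (lmFit, eBayes with an intensity trend), with Benjamini-Hochberg adjustment over all of them, and called at an adjusted p under 0.05; the steps were tested on simulated data. For gene lists the brightest tested probe set stood for a gene. Gene names come from the array annotation. The joint fit with the rest table tested the genotype by table interaction.

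The text names the 14 largest called rises and falls, up to 4 members of each list, sex-linked genes, Brca1, and the 6 brightest probe sets listed in 1 genotype alone. Members and lists were chosen with earlier results of these data known. The 3 arrays per genotype limit the precision: the median SE was 0.288 in the dimmest 1960 probe sets (median signal 115) and 0.158 in the brightest 1960 (median signal 1115). Limma p-values rest on the spread between these arrays, with the variance of each probe set drawn towards that of others of like intensity.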

Additional observations from a re-analysis of the deposited data

How the results depend on the processing

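The B chip comparison was repeated under 21 alternatives. Against 31 calls, it gave 13 after quantile normalization, 15 without the dimmest 40% of probe sets, 8 without a variance trend, 74 with array weights (61 higher, 13 lower), 12 with the sex-marker term (4 higher, 8 lower) and 1, Tbx18, with blanks set to the 5th percentile of the array. Leaving out each array in turn gave between 13 and 25 calls. The other alternatives gave 22 to 32, and no named gene changed its sign with a call; the cause of the changes in count was not tested. Of the 31 probe sets, 9 were called without each array in turn (Gpr17 in the 4 of these fits that gave it a value) and 18 without knockout replicate 3. With a replicate block, 32 passed, 28 of them shared with the 31. Arrays of the same number deviated together with correlations of 0.17, 0.08 and 0.15, so the numbers were not taken to pair the animals, although each array correlated best with its own number. The interaction gave 0 calls in 10 of 11 alternatives (387 to 591 probe sets at an unadjusted limma p under 0.05) and 1 without wild-type replicate 1 of the B chip. Dim probe sets limit what could be seen, since 11265 of 22511 were blank on all 6 arrays.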

Other observations

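Among the 30 lowest interaction p-values some genes lay in opposite directions in the 2 tables: Spopl had a log2 change of 1.01 in cortex and -0.80 in rest, Clmn 0.78 and -0.69, and Htr7, a serotonin receptor, -0.56 and 0.58. None passed after adjustment in limma (adjusted p 0.442), and these genes were named after their values were seen.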
